A study of Mus musculus with 12 samples.

Results

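The comparison described here is the response to Hey2 minus the response to Hey1, gene by gene, in mouse cells differentiated toward cardiomyocytes. For each gene the difference between induced and uninduced cells was taken on the log2(RPKM + 1) scale in each line, and the value of the Hey1 line was subtracted from that of the Hey2 line. RPKM counts the reads of a gene per kilobase of its model, relative to the depth of the library. The result is called the divergence of a gene: a positive value means that the gene stood higher, relative to its own control, after Hey2 than after Hey1, and it says nothing about the level itself. Genes entered by having a value in each of the 4 RNA libraries and averaging at least 1 RPKM, which held for 10991 of the 23427 genes in the deposited table. The size of a response did not enter this choice, but a gene with a blank cell in any library could not enter, which leaves out genes switched on or off across the detection limit.

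RNA was sequenced in 4 of the 12 samples of the series, and the 8 chromatin immunoprecipitation samples were not analysed here. The 4 groups were uninduced and induced cells of a line with an inducible Hey1 gene and uninduced and induced cells of a line with an inducible Hey2 gene, with 1 library in each. Both lines derive from CM7/1, a murine embryonic stem cell line, and all 4 libraries came from cells labelled as in vitro differentiated cardiomyocytes. Induction was 48 h of doxycycline at 1000 ng/ml, and the uninduced cells are labelled as controls. The sources used here do not give the promoter of the inducible genes, the number of clones or the number of cultures behind a library. Both differences contain the response to doxycycline, which was not sequenced by itself. A drug response that differed between the lines cannot be told apart from a difference between Hey1 and Hey2.

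Hey1 and Hey2 are basic helix-loop-helix proteins of the hairy and enhancer-of-split related family. Notch receptors, which are cut by proteases once a ligand binds, switch on their genes, and the proteins then sit at promoters with E-box-like sequences and repress transcription. In the heart they are known for keeping the atrioventricular canal apart from the chambers, with Hey1 in atrial and Hey2 in ventricular muscle, and the proteins are often described as able to stand in for each other.

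The cultures of the lines differed before any induction, and this difference goes with the transgene. All 7 cardiomyocyte markers (Myh6, Myh7, Tnnt2, Tnni3, Actn2, Nkx2-5 and Ryr2) were listed in every library. Their summed level was 6860 RPKM in uninduced and 8152 RPKM in induced Hey1-line cells, against 559 and 607 RPKM in the Hey2 line. The 6 markers of undifferentiated stem cells summed to 30.4 and 23.2 RPKM in the Hey1 line and to 301 and 294 RPKM in the Hey2 line. In such bulk RNA, fewer cells of a type and less RNA per cell cannot be told apart, and neither can the culture and the induced gene as sources of a divergence.

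With 1 library per group there is no replicate check and no p-value. Precision was judged by counting error alone, from whole reads recovered out of the RPKM values. Listed genes took 3151196 and 3142314 reads in the Hey1 line (uninduced, induced) and 2296145 and 4182141 in the Hey2 line. Each fold carries an exact 95% interval, and the fold of one line divided by the fold of the other, here called the ratio of folds, carries an exact conditional 95% interval. Both cover counting error only, since PCR copies are not independent molecules and cultures may vary by more.

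Over all compared genes the divergence had a median of 0.07, an interquartile range of −0.12 to 0.25 and a standard deviation of 0.304. Counting error gives a standard deviation of 0.241, which is 62.7% of the variance. The Hey1 difference had a standard deviation of 0.231 and a median of −0.06, and the Hey2 difference 0.209 and −0.00. The surplus over counting error was present at every depth. Among 1290 genes whose lowest library had 5 to 19 reads, the standard deviation was 0.401 against 0.363 from counting, and among 120 genes with at least 1000 reads in every library it was 0.178 against 0.0604.

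**Figure D1:**
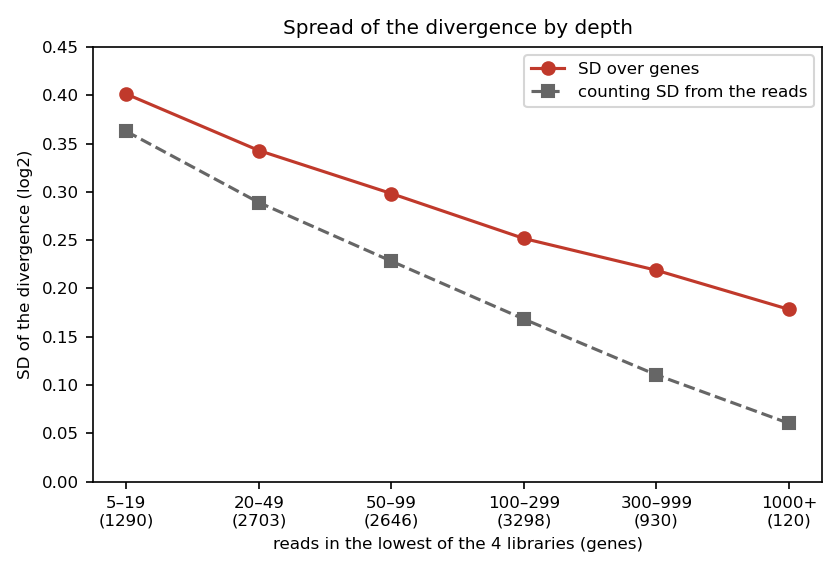
The standard deviation of the divergence over genes (solid, log2 units) and the part that counting error gives (dashed), for 6 classes of the lowest read number among the 4 libraries, with the number of genes in brackets. Both fall with depth, from 0.401 and 0.363 in the shallowest class to 0.178 and 0.0604 in the deepest, where the solid line lies farthest above the dashed one in proportion.

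The divergence reached 2-fold (a value of 1 on the log2 scale) in 54 genes, 38 higher after Hey2 (0.346% of the genes compared) and 16 lower after Hey2 (0.146%). The ratio of folds had an interval off 1 in 49 of the 54, but 43 had fewer than 50 reads in at least 1 library, and 14 have no known name. Of all 10987 genes with recovered reads, 1290 had under 20 reads in the lowest library. Another 2703 had at least 20 but under 50. In 33 of the 38 higher genes and in all 16 lower ones the Hey1 and Hey2 differences had opposite signs. Choosing genes by a large divergence favours opposite signs, so these counts are largely set by the choice. Over all genes the Hey1 and Hey2 differences had standard deviations of only 0.231 and 0.209. The Hey1 difference, the wider one over all genes, was the larger part in 26 of the 38 and in 11 of the 16. Among the 10987 genes with recovered reads, the interval of the ratio of folds lay above 1 for 1293 genes (11.8%) and below 1 for 398 (3.62%), and the divergence was above 0 for 60.0% of all genes.

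This surplus on the positive side depended on how the libraries were scaled. Read against the median ratio of folds of 1.06, 818 intervals lay above and 702 below, and under median ratio scaling the 2-fold counts were 25 higher and 27 lower. Every divergence given below is uncorrected and should be read against the median of 0.07. Genes nearest to the 2-fold line were C730025P13Rik at 1.01 and LOC629750 at −1.01 on its inner side, with Esf1 and A230056P14Rik at 0.998 and 0.999 on the other.

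**Figure D2:**
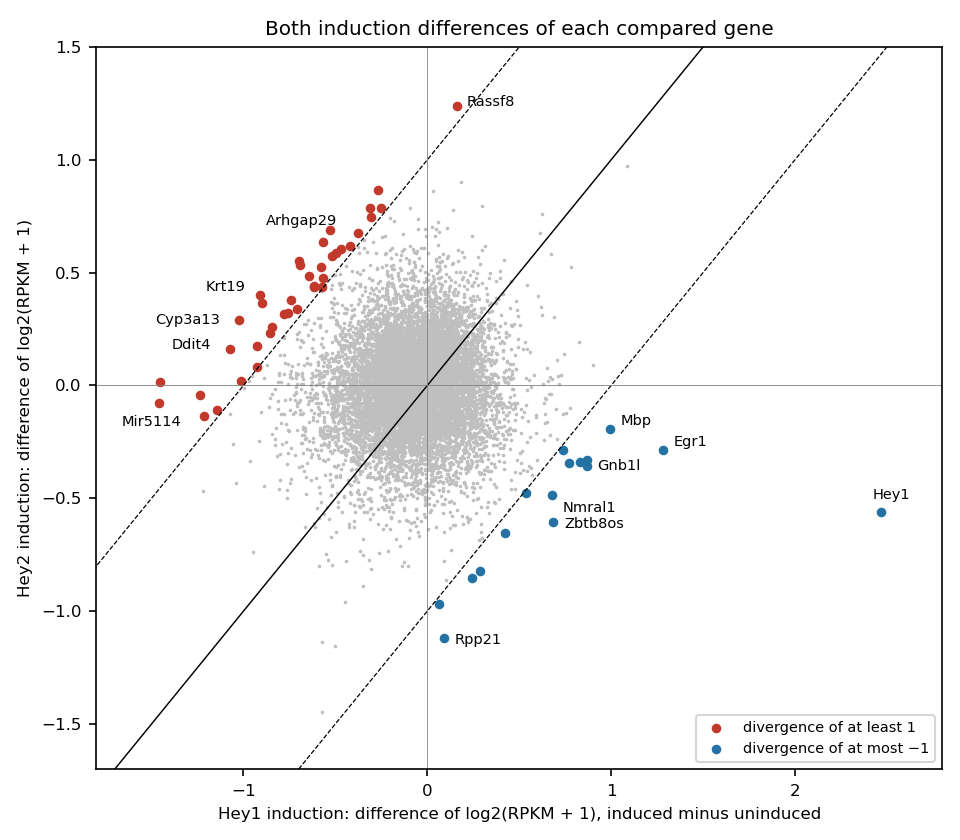
Each point is 1 of the 10991 genes, placed by its Hey1 induction difference (x) and its Hey2 induction difference (y), both on the log2(RPKM + 1) scale. The solid line marks equal differences and the dashed lines a divergence of 1 and −1. The 38 red genes lie mainly at the upper left, where the gene was lower after Hey1 and higher after Hey2, and the 16 blue genes at the lower right, with Hey1 itself farthest out at −3.03.

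The induced genes themselves gave the widest divergence and check the labels. Hey1 (Entrez 15213) stood at 0.735 RPKM without and 8.59 RPKM with induction in the Hey1 line, and at 1.18 and 0.481 RPKM in the Hey2 line. The libraries thus disagree in direction: the gene was 11.7-fold higher after Hey1 induction, and 2.46-fold lower (1.06 to 5.92) after Hey2 induction from only 15 and 11 reads. Its ratio of folds was 28.7 toward Hey1 (9.69 to 85.2). Hey2 (Entrez 15214) could not be given a divergence, as its cell for the uninduced Hey2 line is blank. Against an assumed limit of 5 reads its ratio of folds was at least 14.9 toward Hey2, with no allowance for counting error. Each induced gene was highest in the library in which it was induced, and reads from the resident gene and the inducible copy cannot be told apart.

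Next to Hey1, the gene with the largest divergence toward Hey1 was Egr1 (Entrez 13653), an immediate early zinc finger transcription factor switched on by growth factor and stress signals. It stood at 5.37 RPKM in uninduced and 14.5 RPKM in induced Hey1-line cells, and at 8.61 and 6.87 RPKM in the Hey2 line. The Hey1-line libraries were the lowest and the highest of the 4. The fold was 2.70 (2.19 to 3.35) after Hey1, while Hey2-line cells were 1.252-fold lower (1.01 to 1.55). The ratio of folds was 3.38 toward Hey1 (2.50 to 4.58), a divergence of −1.57. Each library held at least 122 reads of it.

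Gnb1l, a WD-repeat protein gene of the interval that is deleted in the human 22q11 syndrome, had a divergence of −1.22. Its level was 8.92 and 17.1 RPKM in the Hey1 line and 14.5 and 11.1 RPKM in the Hey2 line. It was thus 1.92-fold higher (1.64 to 2.25) after Hey1 and 1.30-fold lower (1.12 to 1.51) after Hey2, with both intervals off 1. Mbp, the gene of myelin basic protein, stood at 2.20 and 5.38 RPKM, then at 4.08 and 3.44 RPKM. Only its Hey1 fold of 2.45 (1.98 to 3.04) lay off 1, and its divergence was −1.19. Egr1, Gnb1l and Mbp were the 3 genes of the 16 with at least 100 reads in every library.

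Well-counted genes with smaller divergences toward Hey1 included Cdc37l1, a cochaperone of Hsp90, at 24.7 and 40.9 RPKM in the Hey1 line and 42.0 and 35.5 RPKM in the Hey2 line. With 460 to 926 reads per library its ratio of folds of 1.96 toward Hey1 had a narrow interval of 1.68 to 2.30. Stxbp4, a syntaxin-binding protein gene of vesicle transport, stood at 8.91 and 15.5 RPKM against 7.38 and 6.69 RPKM, and Plagl1, an imprinted zinc finger growth regulator, at 12.9 and 20.6 RPKM against 9.16 and 8.04 RPKM. In both, the Hey1 fold lay off 1 (1.74 and 1.60) while the Hey2 fold was within counting error, and the divergences were −0.86 and −0.81. The antisense RNA gene Otx2os1 stood at 24.4 and 40.2 RPKM, then at 58.8 and 54.6 RPKM, with a divergence of −0.80.

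Vegfb, a ligand of the vascular endothelial growth factor receptor Flt1, went opposite ways. It stood at 23.9 and 34.8 RPKM in the Hey1 line, 1.45-fold higher (1.24 to 1.71), and at 12.9 and 9.73 RPKM in the Hey2 line, 1.32-fold lower (1.02 to 1.72). Its divergence was −0.89. Id2, which encodes a helix-loop-helix protein that binds and disables basic helix-loop-helix factors, behaved alike at lower depth, with 18.4 and 23.9 RPKM against 8.89 and 5.91 RPKM and a divergence of −0.88.

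Genes with fewer reads made up the rest of this side. Zbtb8os, a cofactor of the tRNA ligase complex, stood at 7.78 and 13.1 RPKM in the Hey1 line and 17.4 and 11.1 RPKM in the Hey2 line, a divergence of −1.29. For the RNase P subunit Rpp21 the Hey2 side made the divergence of −1.21, at 8.70 and 3.47 RPKM from 25 and 18 reads, while the Hey1 line gave 9.19 and 9.87 RPKM. The same held for Adck4 (now Coq8b, of coenzyme Q synthesis) and Loh12cr1 (now Borcs5, of lysosome positioning), with divergences of −1.11 and −1.09 from 18 to 58 reads. Nmral1, a sensor of NADPH, had −1.17. Of the remaining genes chosen on this side, AB124611, Gm7977 and Gm6525 are named only.

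On the positive side, 3 of the 38 genes had at least 100 reads in every library. Ddit4, an inhibitor of mTORC1 that hypoxia and other stresses switch on, stood at 25.6 and 11.6 RPKM in the Hey1 line and at 26.7 and 30.0 RPKM in the Hey2 line. The control levels nearly coincided, and the low value was that of induced Hey1-line cells. It was 2.20-fold lower (1.80 to 2.69) after Hey1 and 1.12-fold higher (0.964 to 1.31) after Hey2, a ratio of folds of 2.47 (1.91 to 3.18) and a divergence of 1.23.

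Rab21, a small GTPase of early endosomes that carries integrins, stood at 17.6 and 10.2 RPKM in the Hey1 line and at 9.82 and 13.1 RPKM in the Hey2 line. It was 1.74-fold lower (1.40 to 2.15) and 1.33-fold higher (1.05 to 1.69), a divergence of 1.12. Arhgap29, a GTPase-activating protein, stood at 4.35 and 3.12 RPKM, then at 4.85 and 8.35 RPKM. Here the Hey2 side was the larger, 1.72-fold higher (1.42 to 2.09) against 1.40-fold lower (1.10 to 1.78), a divergence of 1.06. Arhgap5, which encodes another GTPase-activating protein, stood at 4.60 and 2.90 RPKM against 11.6 and 15.3 RPKM, with a divergence of 0.89 and both folds off 1.

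The keratin genes Krt19 and Krt18, which mark simple epithelia, parted although their control levels also differed. Krt19 stood at 5.81 and 2.62 RPKM in the Hey1 line, 2.21-fold lower (1.38 to 3.63), and at 49.1 and 65.1 RPKM in the Hey2 line, 1.33-fold higher (1.18 to 1.50). Its divergence was 1.31, from 59 and 27 reads in the Hey1 line. Krt18 stood at 13.7 and 11.5 RPKM, within counting error, against 84.0 and 134 RPKM, with a divergence of 0.89. Other keratin genes parted less: Krt8 had a divergence of 0.35, and Krt10, lower in both inductions, had 0.14. Slc2a3, a glucose transporter, stood at 8.67 and 5.73 RPKM in the Hey1 line and 103 and 139 RPKM in the Hey2 line, a divergence of 0.95 with both folds off 1. Cox7c, a subunit of cytochrome c oxidase, was 1.64-fold lower (1.41 to 1.92) at 135 and 82.3 RPKM after Hey1, and stood at 41.4 and 48.7 RPKM in the Hey2 line, within counting error, for a divergence of 0.94.

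Bhlhb2 (now Bhlhe40) encodes a basic helix-loop-helix repressor that, like the Hey proteins, has an Orange domain and binds E-boxes. Its levels were 14.0 and 9.89 RPKM in the Hey1 line and 12.7 and 17.8 RPKM in the Hey2 line. The folds nearly mirrored each other, 1.42-fold lower (1.19 to 1.69) after Hey1 and 1.40-fold higher (1.20 to 1.64) after Hey2, and the divergence was 0.92. Acta1, the skeletal alpha-actin gene that is also expressed in fetal and stressed heart muscle, had the same shape at 9.20 and 6.11 RPKM against 14.2 and 21.6 RPKM, a divergence of 1.10.

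**Figure D3:**
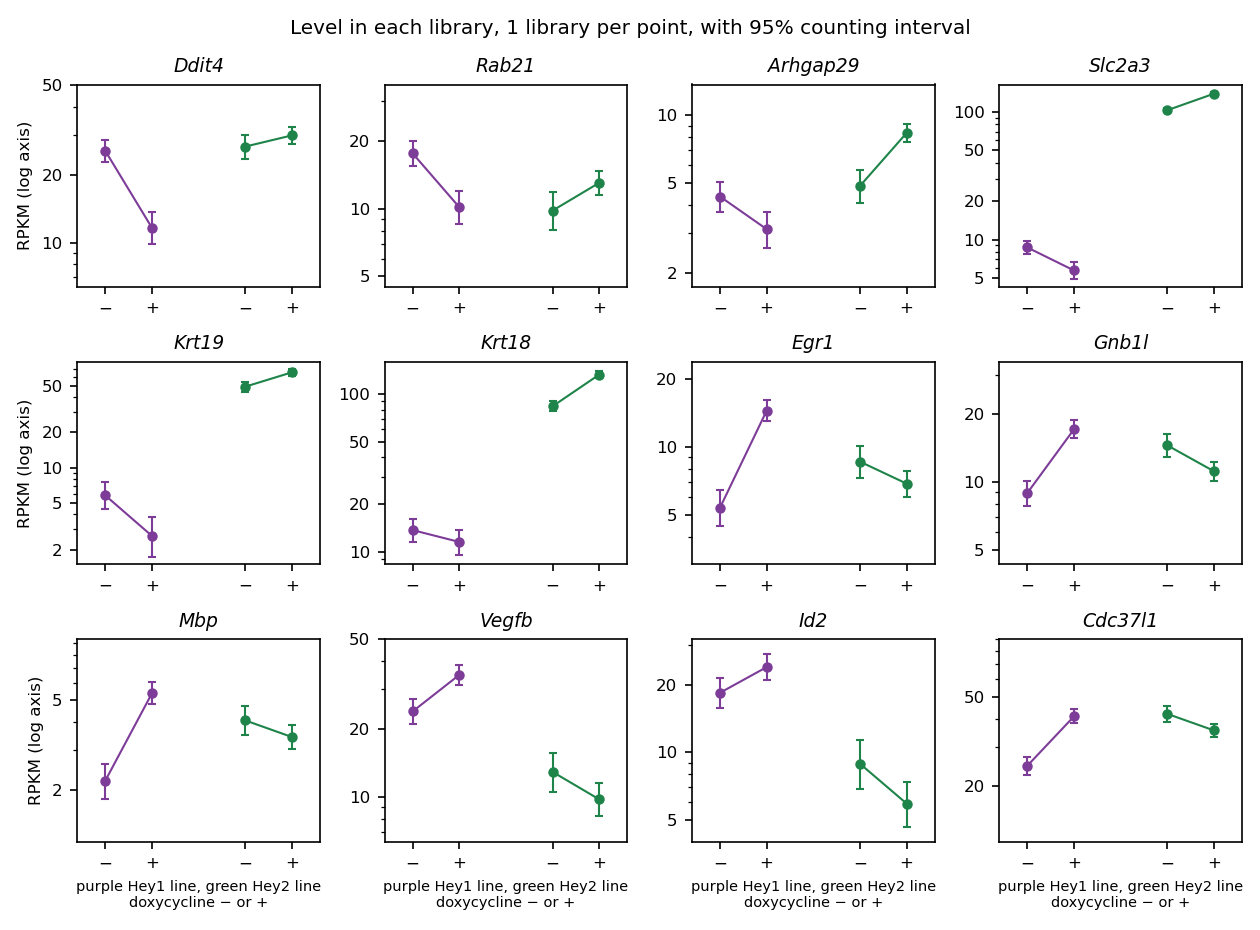
RPKM in each library (log axis) for 6 genes with a positive and 6 with a negative divergence, purple for the Hey1 line and green for the Hey2 line, without (−) and with (+) doxycycline. Each point is 1 library and bars are exact 95% Poisson intervals of counting error. In Ddit4 the control levels nearly coincide while the induced levels part, in Egr1, Gnb1l and Mbp the Hey1-line libraries are the lowest and the highest of the 4, and in Krt19, Krt18 and Slc2a3 the lines lie several-fold apart already without induction.

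Other genes of at least 2-fold divergence on the positive side had a library with under 100 reads. Cyp3a13, a cytochrome P450 of drug and steroid oxidation, stood at 5.08 and 1.99 RPKM in the Hey1 line and 2.65 and 3.46 RPKM in the Hey2 line, a divergence of 1.31. Nrg3, a ligand of the receptor ErbB4, gave 3.82 and 1.58 RPKM against 0.826 and 1.35 RPKM, a divergence of 1.26. In these genes and in C1d, a cofactor of the nuclear exosome (5.71 and 1.85 RPKM against 8.06 and 7.79 RPKM, divergence 1.19), the Hey1 fold lay off 1 and the Hey2 fold did not. Lgals3bp, a secreted glycoprotein that binds galectin 3, was the reverse case, at 1.68 and 1.23 RPKM against 2.33 and 5.07 RPKM, with a Hey2 fold of 2.18 (1.44 to 3.40) and a divergence of 1.13. Rpusd3, an enzyme that modifies mitochondrial RNA, and 1190017O12Rik (now Smim11) had 1.22 and 1.21. The remaining genes chosen here, 4930481A15Rik, 1700034P13Rik and RP23-330D3.5, are named only.

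Among the genes that the choice left out, 3 with known roles were picked after their values were seen. Nppb, the gene of brain natriuretic peptide, stood at 140 and 85.5 RPKM in the Hey1 line, 1.64-fold lower (1.47 to 1.84), and at 7.80 and 10.1 RPKM in the Hey2 line, a divergence of 1.05. Inhba, the activin subunit, stood at 6.98 and 4.97 RPKM against 1.251 and 2.46 RPKM, with a divergence of 1.04. Rassf8, of the Ras association domain family, stood at 13.3 and 15.0 RPKM against 1.40 and 4.67 RPKM, and its divergence of 1.08 came from a Hey2 fold of 3.33 (1.88 to 6.34).

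The microRNA gene Mir5114 had the largest positive divergence of any gene with a known name, 1.38, at 332 and 120 RPKM in the Hey1 line and 245 and 232 RPKM in the Hey2 line. It is shown because its short length sets how the value is read. The mature miR-5114 lies at chr19:44303171-44303192 on the plus strand of GRCm38.p6, in RefSeq, within a hairpin of 61 bases that overlaps the fatty acid desaturase gene Scd2, and the capitals mark its seed.
mmu-miR-5114: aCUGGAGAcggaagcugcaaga
Scd2 itself had a divergence of 0.48, with differences of −0.41 after Hey1 and 0.07 after Hey2. Reads of Scd2 and of the hairpin cannot be told apart here, so the value is not one of the mature microRNA.

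Promoters were looked at because Hey proteins bind E-box-like sequences, known forms being CACGTG and CACGCG. RefSeq start sites of GRCm38.p6 gave 250 bases before the start for 8784 of the compared genes. CACGTG was found on either strand in 10.3% of these windows and CACGCG in 17.5%. For the genes with an interval above 1 the shares were 10.9% and 19.5% of 1011 windows, and for those with an interval below 1 they were 12.7% and 19.0% of 306. The 30 windows of genes at least 2-fold higher held each motif in 16.7%, and of the 6 windows of genes at least 2-fold lower, 16.7% held CACGTG and 0 held CACGCG. The shares in both interval sets lay near those of all genes, and the 2-fold sets hold too few windows for a comparison. CACGTG reads the same on both strands, and each motif was counted by itself, so that occurrences could overlap.

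The 16 genes taken here had the largest divergences, 8 in each direction, among genes with at least 100 reads in every library. Of the 16, 11 had a window and 3 of them held a motif. Over all windows CACGTG was found in 10.3% and CACGCG in 17.5%. The share with either motif is not given here, so 3 of 11 cannot be called high or low. The 3 with a motif are shown 5′ to 3′ on the strand of the gene. The motif is in capitals, and CGCGTG is CACGCG read from the other strand. They are Plagl1 at chr10:13090623-13090682 on the plus strand, with the motif 182 bases before the start, Rab21 at chr10:115315592-115315648 on the minus strand, 30 bases before it, and Vegfb at chr19:6987701-6987760 on the minus strand, 82 bases before it.
Plagl1: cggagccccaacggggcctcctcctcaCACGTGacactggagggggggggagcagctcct
Rab21: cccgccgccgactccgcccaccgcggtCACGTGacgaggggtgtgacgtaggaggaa
Vegfb: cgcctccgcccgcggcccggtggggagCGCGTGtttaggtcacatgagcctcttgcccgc
Plagl1 and Vegfb diverged toward Hey1 (−0.81 and −0.89) and Rab21 toward Hey2 (1.12). A match describes letters only, and no binding was measured here.

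Genes that went opposite ways are the plainest form of divergence. At a ratio of at least 5 to 4 in each line, on the log2(RPKM + 1) scale, with both intervals off 1, 26 genes (0.237% of 10987) were higher after Hey2 and lower after Hey1, and 12 (0.109%) were the reverse. Without the demand on intervals the counts were 73 and 43. The counts without that demand moved with the scaling of the libraries. The surplus toward Hey2 is therefore not a result about the induced genes. Besides Rab21, Acta1, Arhgap29, Krt19, Slc2a3, Bhlhb2 and Arhgap5, the first group held the phosphatase Dusp22, at 2.57 and 1.57 RPKM against 2.29 and 3.64 RPKM, and the kinesin Kif13b, at 1.78 and 1.05 RPKM against 3.63 and 5.68 RPKM, both with a divergence of 0.97. Cd55, which shields cells from complement, stood at 2.30 and 1.37 RPKM against 3.65 and 5.34 RPKM. Fbxo25, a ubiquitin ligase subunit, stood at 11.2 and 7.84 RPKM against 5.80 and 8.16 RPKM. In each of these 4 genes the induced library was the lower in the Hey1 line and the higher in the Hey2 line.

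The reverse group, higher after Hey1 and lower after Hey2, held Hey1, Gnb1l, Vegfb, Id2, Zbtb8os and Nmral1 among others. The palmitoyltransferase Zdhhc4 stood at 6.43 and 9.11 RPKM in the Hey1 line and 5.17 and 3.22 RPKM in the Hey2 line, and the tRNA methyltransferase Trmt5 at 2.91 and 4.55 RPKM against 9.90 and 7.33 RPKM. Ccdc115, an assembly factor of the vacuolar proton pump, stood at 6.50 and 8.84 RPKM against 4.18 and 2.66 RPKM, and BC039093 (now Zfp362), a zinc finger gene, at 6.66 and 9.25 RPKM against 4.04 and 2.21 RPKM. Divergences in these 4 genes ran from −0.89 to −1.07. In each of them at least 2 libraries held fewer than 100 reads, BC039093 having 67 and 66 in the Hey2 line.

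Among all compared genes, 61.6% were lower after Hey1, 50.6% lower after Hey2 and 49.4% higher after Hey2. Of the genes with recovered reads, 11.8% had an interval of the ratio of folds above 1 and 3.62% one below. The counts of list members below are to be read against these shares. Intervals narrow as reads increase, so lists of deeply read genes reach more of them. Mitosis genes (33 compared) diverged toward Hey2 in 29 of 33, with a median of 0.34 against 0.07 over all genes, and 13 intervals lay above 1 and 0 below. In 30 of 33 the induced Hey1-line library was the lower of its line (median −0.30), whereas after Hey2 20 were higher and 13 lower (median 0.03). DNA replication genes (34 compared) were lower in both inductions, 29 of 34 after Hey1 (median −0.16) and 28 of 34 after Hey2 (median −0.15). Their median divergence was 0.04, or −0.01 under median ratio scaling, with 1 interval above 1 and 2 below. The share of replication genes above 0, 21 of 34, was near the 60.0% of all genes. The lists were not tested against each other.

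Ect2, which starts the cleavage furrow of dividing cells, had the largest divergence of the mitosis genes, 0.84, at 1.91 and 0.940 RPKM in the Hey1 line and 12.2 and 14.8 RPKM in the Hey2 line. Ccnb2, cyclin B2, stood at 4.65 and 2.34 RPKM against 30.8 and 31.0 RPKM. After Hey1 they were 2.03-fold (1.29 to 3.26) and 1.99-fold (1.23 to 3.29) lower, and after Hey2 Ect2 was 1.21-fold higher (1.06 to 1.39) while Ccnb2 lay within counting error. The contractile ring scaffold Anln was lower after Hey1 and higher after Hey2, at 3.32 and 2.24 RPKM against 17.4 and 21.6 RPKM, with a divergence of 0.71. Top2a, the topoisomerase that untangles chromosomes, had the most reads, at 7.05 and 4.65 RPKM against 86.3 and 91.0 RPKM, a ratio of folds of 1.60 (1.31 to 1.95). Every mitosis gene compared had a lower level in the Hey1 line than in the Hey2 line, with a median over genes of 38 reads in the lowest library. The 4 mitosis genes below 0 were Cdc25c, Mad2l1, Bub1 and Kif20a, each within counting error.

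Of the replication genes, Gins1, a subunit of the replicative helicase, diverged toward Hey2 (0.80) at 8.47 and 3.55 RPKM against 14.3 and 11.8 RPKM. The polymerase subunit Pold1 and the sliding clamp Pcna diverged toward Hey1, by −0.57 and −0.42, with Pcna at 13.6 and 15.1 RPKM against 50.5 and 41.5 RPKM. The 7 core histone genes compared all had a positive divergence (median 0.36), 4 of them with intervals above 1. Those 4 (H2afz, H2afy, H3f3a and H3f3b) encode variants that are made outside S phase, and H2afz stood at 33.7 and 20.8 RPKM against 97.8 and 86.0 RPKM.

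**Figure D4:**
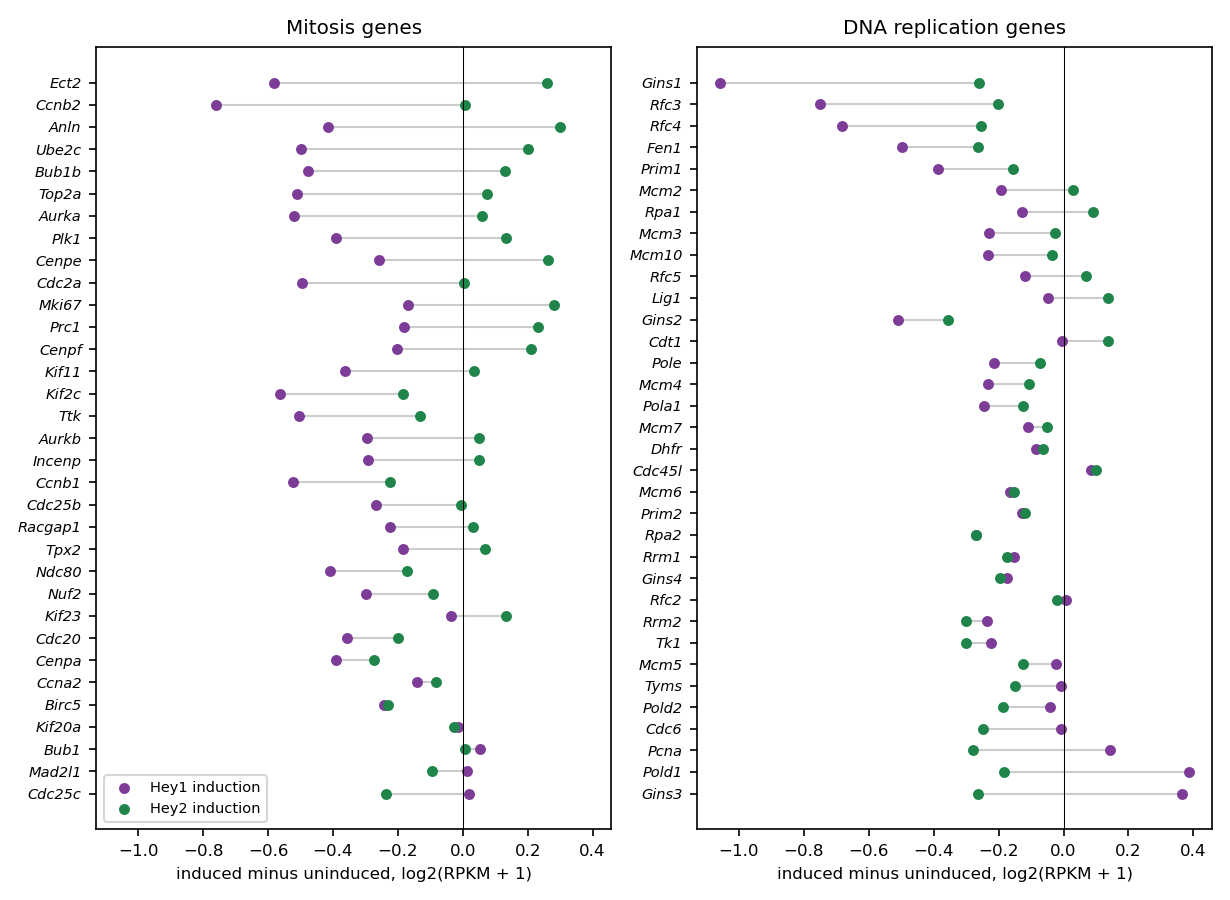
Induction differences on the log2(RPKM + 1) scale of 33 mitosis genes (left) and 34 DNA replication genes (right), purple for Hey1 and green for Hey2, joined by a grey line whose length is the divergence and sorted by it. In 29 of 33 mitosis genes the green point lies to the right of the purple one, and among replication genes in 21 of 34, with most points of both colours left of 0.

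Genes of fibroblasts and extracellular matrix diverged toward Hey2 in 20 of 22, with a median of 0.31, 11 intervals above 1 and 0 below. By the medians the Hey2 side carried most of it, with 19 of 22 higher after Hey2 (median 0.24) and 15 of 22 lower after Hey1 (median −0.07). In Postn, Lox and Col1a2, however, the Hey1 difference was the larger part. Postn, periostin, stood at 6.48 and 4.33 RPKM in the Hey1 line and at 3.75 and 5.12 RPKM in the Hey2 line, a divergence of 0.86 with both folds off 1. Lox, the enzyme that crosslinks collagen, stood at 1.35 and 0.629 RPKM against 3.09 and 4.04 RPKM (0.83). It had 17 reads in induced Hey1-line cells, and its Hey2 fold lay within counting error. The collagen chain Col1a2 stood at 3.39 and 2.13 RPKM against 9.87 and 12.2 RPKM (0.77). Col1a1, with more reads, stood at 24.7 and 24.0 RPKM against 34.7 and 45.5 RPKM, so that the Hey1 line hardly differed and the ratio of folds was 1.35 (1.19 to 1.53). The 5 fibroblast markers, of which Postn, Col1a2 and Col1a1 are also in this list, were listed in every library and summed to 42.6 and 36.8 RPKM in the Hey1 line and 58.7 and 76.6 RPKM in the Hey2 line. Their part in the result was not tested.

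These genes are long, with a median model of 4226.5 bases against 2894 over all genes, and length went with the divergence. Genes are not independent replicates, and across 10987 of them Spearman's rank correlation with length was 0.105 for the divergence, 0.0514 for the Hey1 difference and 0.230 for the Hey2 difference. The median divergence was 0.04 in the shortest and 0.12 in the longest 20% of genes. With the length trend removed the median of the matrix genes was 0.28.

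Epithelial and keratin genes diverged toward Hey2 in 10 of 12 (median 0.31, 5 intervals above 1 and 0 below). By the medians nearly all of this came from the Hey2 line. There 11 of 12 were higher after induction (median 0.31), against a Hey1 median of 0.02. Next to Krt19 and Krt18 it was led by Dsp, desmoplakin, which anchors desmosomes in epithelium and heart muscle alike, at 54.2 and 56.7 RPKM against 12.1 and 18.4 RPKM, a divergence of 0.50. In Krt19, however, the Hey1 difference was the larger part, at −0.91 against 0.40 after Hey2. The 4 epithelial markers summed to 20.9 and 19.0 RPKM in the Hey1 line and to 268 and 336 RPKM in the Hey2 line. Cdh1, E-cadherin, stood at 92.1 and 92.2 RPKM in the Hey2 line, with a divergence of −0.09. The markers are Epcam, Cdh1, Krt8 and Krt18, of which at least Krt18 is also a member of this list. The part of the markers in the result was not tested.

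Among smooth muscle genes the divergence was mixed, positive in 6 of 11 (median 0.08). Tagln, which encodes the actin-binding protein transgelin, was 1.17-fold lower (1.06 to 1.30) after Hey1 and 1.34-fold higher (1.23 to 1.46) after Hey2, at 71.1 and 60.7 RPKM against 82.5 and 111 RPKM. Cald1, caldesmon, and Flna, filamin A, had divergences of 0.57 and 0.34 with intervals above 1. Acta2, the defining actin of smooth muscle, stood at 217 and 253 RPKM against 45.6 and 49.5 RPKM, with a divergence of −0.10 that lay within counting error.

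Pluripotency genes diverged toward Hey2 in 21 of 24 (median 0.31, 7 intervals above 1 and 0 below). In the Hey1 line 21 of 24 were lower after induction (median −0.17) and in the Hey2 line 17 of 24 were higher (median 0.12). Zfp42, or Rex1, stood at 7.80 and 4.89 RPKM against 30.0 and 34.2 RPKM, and Sox2 at 4.02 and 2.23 RPKM against 36.8 and 39.4 RPKM, with divergences of 0.76 and 0.73. For these the Hey1 side lay off 1 and the Hey2 side did not. Esrrb was the other case, at 3.22 and 2.74 RPKM against 5.80 and 9.18 RPKM, a divergence of 0.76 from a Hey2 fold of 1.58 (1.32 to 1.92). Pou5f1, which encodes Oct4, stood at 9.93 and 8.87 RPKM against 98.1 and 82.8 RPKM, with a divergence of −0.09. The 6 stem cell markers, of which Zfp42, Sox2 and Pou5f1 are also in this list, summed to 30.4 and 23.2 RPKM in the Hey1 line and to 301 and 294 RPKM in the Hey2 line, and their part in the result was not tested.

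All 13 interferon-response genes compared had a positive divergence, with a median of 0.44, the highest of the lists with at least 5 members compared, and 6 intervals lay above 1. Of them 11 were lower after Hey1 (median −0.26) and 12 higher after Hey2 (median 0.12). The shared sign holds for the members of this list and not for every related gene. Some related genes outside the list, such as Irf2 and the class I genes H2-Q4 and H2-T22, had negative divergences. These were picked after their values were seen. The antiviral membrane protein gene Ifitm3 stood at 4.17 and 2.47 RPKM against 26.3 and 38.2 RPKM, a divergence of 1.10 from as few as 12 reads. H2-K1, a class I antigen-presenting chain, stood at 10.3 and 6.08 RPKM against 27.4 and 29.2 RPKM, with a ratio of folds of 1.80 (1.29 to 2.52), and Ifit2 at 1.27 and 0.912 RPKM against 1.63 and 2.47 RPKM.

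Hypoxia-response genes diverged toward Hey2 in 17 of 20 (median 0.28), with 8 intervals above 1 and 1 below. Here the Hey1 side carried the difference, with 19 of 20 lower after Hey1 (median −0.31) while after Hey2 9 were higher and 11 lower (median −0.04). Egln3, an oxygen sensor that marks HIF for destruction, stood at 3.99 and 1.15 RPKM in the Hey1 line and 4.09 and 3.64 RPKM in the Hey2 line, a divergence of 1.08. Bnip3, a mitophagy receptor, stood at 10.1 and 5.16 RPKM against 4.36 and 4.23 RPKM, a divergence of 0.81. In both genes the Hey1 fold lay off 1 and the Hey2 fold did not. Vegfa, by contrast, was lower in both lines at 21.2 and 17.0 RPKM against 8.76 and 7.94 RPKM, and its ratio of folds of 1.13 (0.917 to 1.39) lay within counting error. Hmox1, which breaks down haem, was the gene with an interval below 1, at 55.0 and 67.5 RPKM against 16.0 and 14.9 RPKM.

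Glycolysis genes, many of which HIF also switches on, did not part as a group. Of 19, 15 were lower after Hey1 and 12 after Hey2, and the median divergence was 0.07 with 4 intervals above 1 and 3 below. Pfkfb3, which makes the activator of phosphofructokinase, stood at 3.22 and 1.97 RPKM against 5.36 and 7.33 RPKM (divergence 0.90), the lactate exporter Slc16a3 at 26.8 and 13.2 RPKM against 39.2 and 30.9 RPKM (0.63) and hexokinase Hk2 at 23.8 and 19.2 RPKM against 14.0 and 17.1 RPKM (0.57). Gapdh, glyceraldehyde phosphate dehydrogenase, was the other gene with an interval above 1, at 84.9 and 65.0 RPKM against 27.7 and 29.5 RPKM (0.47). Those below 1 were Ldha, Pkm2 and Pfkl, enzymes of the pathway, and Ldha, lactate dehydrogenase, was lower in both lines with a divergence of −0.21.

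Immediate early genes leaned to Hey1 less as a group than Egr1 did. Of 24, 11 were above 0 and 13 below, with a median of −0.03, 2 intervals above 1 and 4 below. The 4 were Egr1, Ier2 (8.08 and 11.4 RPKM against 18.6 and 17.4 RPKM, divergence −0.55), Dusp6 (−0.47) and Srf (−0.36), the last being the factor that drives many of these genes. Fos stood at 0.775 and 1.97 RPKM against 1.33 and 1.57 RPKM, and its ratio of folds of 2.16 toward Hey1 (0.811 to 5.87) lay within counting error. Junb stood at 5.14 and 7.03 RPKM against 9.07 and 12.2 RPKM, higher in both induced libraries, with a divergence of −0.00. Klf2, a transcription factor gene also in the pluripotency list, and Jund had intervals above 1.

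Sarcomere genes did not part as a group either. Of 27, 14 were above 0, with a median of 0.02 that became −0.06 under median ratio scaling, and 4 intervals lay on each side. Below 1 were Tnni3, Myom2, Tnnt2 and Myh6, and above 1 Cryab, Nebl, Myl7 and Tpm1. Tnni3, the cardiac inhibitory troponin, stood at 597 and 758 RPKM in the Hey1 line and 30.4 and 30.6 RPKM in the Hey2 line, a divergence of −0.33. Cryab, a small heat shock protein that guards sarcomere proteins, stood at 410 and 421 RPKM against 18.2 and 24.8 RPKM, a divergence of 0.39. Myl7, the atrial light chain, was 1.14-fold lower (1.12 to 1.16) after Hey1 and stood at 159 and 166 RPKM in the Hey2 line, within counting error. Tbx20 and Ankrd1 were the cardiac regulators of 20 compared with an interval above 1, with divergences of 0.46 and 0.29, and 0 had one below. Tbx2, the factor of the atrioventricular canal that Hey proteins are known to repress, stood at 9.29 and 11.5 RPKM against 1.51 and 1.38 RPKM, and its ratio of folds of 1.36 toward Hey1 (0.812 to 2.24) lay within counting error.

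The myosin heavy chain locus held a divergence of its own, picked after its values were seen. Mhrt, the noncoding RNA that is transcribed antisense to Myh7 (listed as ENSMUSG00000053118, Entrez 791403), stood at 2458 and 3907 RPKM in the Hey1 line, 1.59-fold higher (1.56 to 1.62). In the Hey2 line it stood at 163 and 168 RPKM, 1.03-fold higher (0.941 to 1.12), for a divergence of −0.63. Its neighbours Myh6, at 1704 and 2106 RPKM against 146 and 167 RPKM, and Myh7, at 997 and 1210 RPKM against 90.1 and 111 RPKM, had divergences of −0.11 and 0.02. The strand of the reads is not given in the sources used here, so reads of Mhrt and of the myosin genes around it cannot be told apart where they overlap.

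The Notch pathway itself hardly parted. Of 13 genes compared, Hey1 was the one with an interval below 1 and Notch3 the one above. The receptor gene Notch3 stood at 1.21 and 1.01 RPKM against 7.79 and 11.0 RPKM, a divergence of 0.59. Hes1, the sister target of Notch, stood at 9.69 and 8.82 RPKM against 11.5 and 11.5 RPKM, and Rbpj, the DNA-binding partner of the receptors, at 4.77 and 4.66 RPKM against 12.3 and 14.4 RPKM, both within counting error in the ratio of folds. In the TGF-beta and BMP pathway 16 of 29 were above 0 (median 0.12, 5 intervals above 1 and 1 below). Smad7, which blocks the receptors, stood at 6.15 and 5.13 RPKM against 2.39 and 3.78 RPKM (divergence 0.72), and Id2, a target of BMP signals, was the gene below 1. Tgfb2, a ligand, stood at 17.4 and 18.5 RPKM against 5.89 and 9.32 RPKM (0.50).

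**Figure D5:**
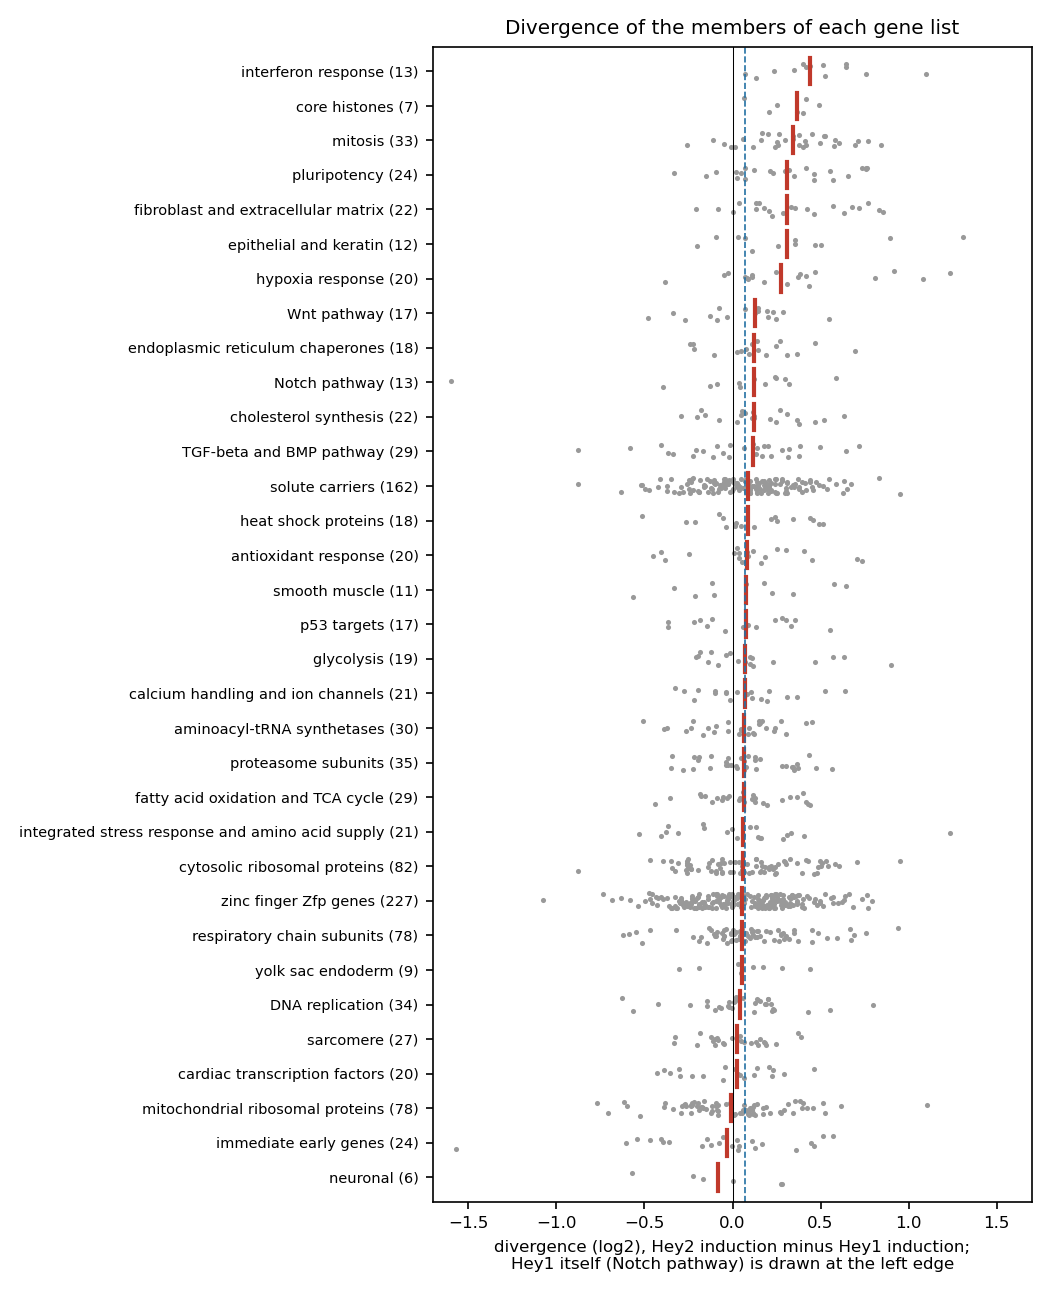
Divergence (log2) of each member (grey points) of the gene lists with at least 5 compared members, whose number is in brackets. Red bars are list medians, the dashed blue line is the median of all genes at 0.07 and the black line is 0. Interferon, core histone, mitosis, pluripotency, matrix, epithelial and hypoxia genes have medians of 0.28 to 0.44, and the other lists lie between −0.08 and 0.13. Hey1, in the Notch list, is drawn at the left edge in place of −3.03.

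The median divergences of housekeeping groups lay near that of all genes, but their shares of intervals off 1 did not all do so. Among all genes 11.8% lay above 1 and 3.62% below. Both shares were exceeded in the cytosolic ribosomal, proteasome, respiratory chain and endoplasmic reticulum chaperone lists. In the cholesterol synthesis list only the share above 1 was exceeded. The median member of the cytosolic ribosomal and proteasome lists had 252.5 and 272 reads in its lowest library. For the respiratory chain and chaperone lists it had 161.5 and 266.5 reads. Cytosolic ribosomal protein genes had a median divergence of 0.06 (49 of 82 above 0, 18 intervals above 1 and 8 below), which became −0.02 under median ratio scaling. Respiratory chain subunits had 0.05 (51 of 78, 11 above and 5 below) and −0.03 under that scaling. Mitochondrial ribosomal proteins had −0.01 (38 of 78, 3 and 2), proteasome subunits 0.07 (21 of 35, 10 and 2), endoplasmic reticulum chaperones 0.12 (14 of 18, 5 and 1) and cholesterol synthesis enzymes 0.12 (17 of 22, 4 and 0). Single members stood out from these groups, among them Rps27a (0.95) and Rps12 (−0.88). Ribosomal protein genes have many near-identical processed copies, and how reads shared with them were counted is not given here, so both values are uncertain.

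Of the 46 genes named for their size of divergence, depth or opposite direction, 20 overlap another RefSeq gene, and without strand their reads may hold those of the partner. They include Mbp, Cdc37l1, Stxbp4, Plagl1, Otx2os1, Slc2a3, Cox7c, Bhlhb2, Nrg3, Kif13b, Cd55 and Trmt5. Egr1, Gnb1l, Vegfb, Id2, Ddit4, Rab21, Arhgap29, Arhgap5, Krt18, Krt19 and Acta1 overlap no other RefSeq gene. The share of all compared genes with an overlap is not given here, so 20 of 46 cannot be called high or low.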

How the data were processed

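RNA from 4 samples was compared, uninduced and induced cells of a Hey1 and a Hey2 line. Total RNA was isolated with Qiagen RNeasy Mini and libraries were made with a NEBNext kit, per the labels' protocols. The submitters' processing notes name Bowtie 1.0, DESeq, MACS 1.4.1 and the build mm9 with no role or order. The authors deposited RPKM values per gene and sample, per the file headers. They also deposited a signed fold per line, used here as a score: all 25970 of these cells equal the ratio of the deposited RPKM values to within rounding. No other column of sample values was present.

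From the RPKM values, log2(RPKM + 1) differences and the divergence were computed for genes with 4 values and a mean of at least 1 RPKM. Whole reads were recovered from the steps of the RPKM values. Depths of 7400000, 7500000, 5750000 and 10375000 reads (Hey1 uninduced and induced, Hey2 uninduced and induced) were set by the genes whose RefSeq length (GRCm38.p6) gave whole reads, and reads came out whole for 15363 of 15371 genes (99.9%). The lowest listed values were taken to be 10 reads for Hey1 and 5 for Hey2 libraries. For 634 genes the smallest length that gave whole reads fell under this limit. Their lengths and reads were raised to a multiple that reached it. The 4 compared genes without recovered reads have no interval. Folds carry exact conditional binomial 95% intervals, ratios of folds exact conditional 95% intervals of a table of reads, and levels exact Poisson ones. With 1 library per group, no test was made in place of a count test on replicates. Motifs were searched on both strands in RefSeq windows of GRCm38.p6. Python 3.11.15, NumPy 2.4.6, pandas 2.3.3, SciPy 1.17.1 and Matplotlib 3.10.9 were used, and the scripts were tested on simulated data.

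Genes were named by a rule: up to 12 in each direction with the largest divergence of at least 2-fold and an interval off 1, up to 8 in each direction among genes with at least 100 reads in every library, up to 8 in each direction that went opposite ways by a ratio of at least 5 to 4 with both intervals off 1, up to 3 per gene list, and Hey1 and Hey2. Other list members are given as counter-examples or controls, chosen after their values were seen. The comparison and the lists, taken from textbook knowledge, were chosen with earlier results of these data known. Alternatives covered scaling, pseudocount, filters, blank cells, gene length and overlapping genes.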

Additional observations from a re-analysis of the deposited data

Results flagged for a closer look

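In 25 of the 129 genes chosen by the rule the library pair of the Hey1 line went one way and that of the Hey2 line the other, by a ratio of at least 5 to 4 each and with both counting intervals off 1. The rule chose genes in part for going opposite ways, so this number is set by the choice. Over all 10987 genes with recovered reads, 0.237% went opposite ways toward Hey2 and 0.109% toward Hey1, by the uncorrected values. The difference between the lines was not tested, since each group has 1 library. Toward Hey2 the divergences were 1.31 in Krt19, 1.12 in Rab21, 1.10 in Acta1, 1.06 in Arhgap29, 0.97 in Dusp22 and Kif13b, 0.95 in Slc2a3, 0.92 in Cd55, Bhlhb2 and C78339 (now Fam8a1), and 0.90 in Fbxo25 and Pfkfb3. They were 0.89 in Arhgap5, 0.86 in Postn and 0.83 in the nucleoside transporter Slc29a3. Toward Hey1 they were −0.88 in Id2, −0.89 in Trmt5, Ccdc115 and Vegfb, −0.99 in Zdhhc4, −1.07 in BC039093, −1.17 in Nmral1, −1.22 in Gnb1l, −1.29 in Zbtb8os and −3.03 in Hey1.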

How the results depend on the processing

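Among the 129 genes chosen by the rule no divergence changed sign under any alternative, and of 1290 such values 19 moved beyond the counting error. The rule chose genes in part for large divergences, which leaves little room for a change of sign. Genes given as counter-examples or controls, some with divergences near 0, were not part of this check. Counts past a fixed size depended on the settings. Against 38 genes at least 2-fold higher and 16 genes at least 2-fold lower, median ratio scaling gave 25 and 27, a pseudocount of 0.1 RPKM 172 and 80, a pseudocount of 5 RPKM 3 and 2, a mean of at least 5 RPKM 20 and 10, at least 50 reads in each library 7 and 4, and blank cells read as 0 146 and 73. Genes free of overlap gave 19 higher, and reading against the median of all genes gave 25 lower. These last settings were chosen after seeing the data. Against 73 genes that went opposite ways, higher in Hey2 induction, median ratio scaling gave 48, pseudocounts of 0.1 and 5 RPKM 197 and 9, a mean of at least 5 RPKM 34 and at least 50 reads 20. Against 43 that went opposite ways, lower in Hey2 induction, upper quartile scaling gave 66, those pseudocounts 102 and 2, the mean of 5 RPKM 18, 50 reads 10 and the median of all genes 68. The standard deviation of 0.304 became 0.392 with 0.1 RPKM and 0.266 with 50 reads, where counting gives 0.324 and 0.186. Matrix genes above 0 went from 90.9% to 100% of the 12 with 50 reads. Shallow genes limit all of these counts. No library could be left out, as each group has 1. No paired analysis was possible because each group has a single library and any shared number pairs nothing.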

Other observations

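Of the genes with a blank cell in 1 library, 660 could be given a bound on the ratio of folds. The blank was set at the assumed limit of 10 (Hey1) or 5 (Hey2) reads. These bounds make no allowance for counting error. A bound toward Hey2 could be given for 454 of them and one toward Hey1 for 206. Of the 454, 44 had a ratio of at least 2 toward Hey2. Besides Hey2 these held Nr0b1, an orphan receptor of embryonic stem cells, at 1.28 RPKM in uninduced Hey1-line cells, blank in induced ones, and 1.16 and 2.31 RPKM in the Hey2 line. Its ratio of at least 3.42 came from 17 reads in uninduced Hey1-line cells and 12 and 43 in the Hey2 line. Of the 206, 33 had a ratio of at least 2 toward Hey1. The counts have different bases and their order says nothing about the lines. Epha1, an ephrin receptor, was blank in uninduced Hey1-line cells, 0.815 RPKM in induced ones, and 11.2 and 10.4 RPKM in the Hey2 line. Both genes were named after their values were seen.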
